A study of Mus musculus with 9 samples.

Results

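The genes described here mark megakaryocytes and the platelets they shed, and were measured in spleen. They are Pf4, Ppbp, Thbs1, Itga2b, Itgb3, Gp1bb, Gp9, Gp6 and Treml1, 9 of 32451 genes or accessions on the array. Every non-control probe whose accession maps to one of these symbols was taken, which gave 12 of 39429 probes. All 9 genes and all 12 probes were well above background on enough arrays to be tested. The spleens came from female BALB/c mice in 3 groups of 3 samples, each hybridised to 1 array. Normal Se GD mice had Graves' disease and a normal dietary selenium supply. Low Se GD mice had the disease on a low supply, and low Se non-GD mice had no disease on a low supply. Graves' disease is an autoimmune overactivity of the thyroid driven by antibodies to the thyrotropin receptor. No group joined a normal supply to the absence of disease, so selenium was compared within diseased mice only. The ages, the way the disease was brought about and the diets were not stated in the material used here. Nothing in the labels tells whether a group's samples came from separate animals, so a p-value measures only how far these samples spread, which may be technical variation.

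Megakaryocytes are very large cells that cut their cytoplasm into platelets, the cell fragments that plug wounds and start clotting. In the mouse the red pulp of the spleen holds megakaryocytes through adult life and also stores a share of the circulating platelets. Platelets keep preformed proteins in alpha granules and release them when surface receptors for collagen, von Willebrand factor or fibrinogen are engaged. In whole-spleen RNA, more cells of a type and more RNA per cell cannot be told apart.

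On 8 arrays between 72.6% and 82.6% of the 43020 non-control spots exceeded background, against 58.4% on normal Se GD replicate 3, which was also alone on its slide. Low Se GD replicate 2 and low Se non-GD replicate 3 took values inside the range of the remaining replicates for 69.0% and 78.3% of 18541 genes, and for 8 of the 9 platelet genes in each case. They are called in-between arrays here, and normal Se GD replicate 1 lay likewise for 55.0% of genes and 8 of the 9. Whether the in-between arrays are samples of their own or hold RNA of the other replicates was not tested, and in the second case n = 3 is too high for these groups and their SDs and p-values are too small. Counts of calls and the platelet genes' changes in low Se GD are therefore also given without them. Arrays that share a scan time were taken as 1 slide. On slide 1, low Se GD replicate 1 shared a scan time with all 3 low Se non-GD arrays. The second slide carried normal Se GD replicates 1 and 2 beside low Se GD replicates 2 and 3. A ribosomal RNA signal, Rn28s1, lay between 3.003 and 5.99 on the GD arrays, and between 0.45 and 0.83 in low Se non-GD. A control spot, E1A a107, ran the other way, from 0.87 to 2.51 on the 6 GD arrays against 4.72 to 5.85 on those of low Se non-GD, and stood at 2.51 on the low Se GD array of slide 1. The part of these signals in the platelet gene results was not tested. Of the lymphocyte markers expected in spleen, Cd3e, a chain of the T cell receptor complex, was well above background and lay between 0.72 and 1.52 over all 9 arrays. Values are log2 signals minus the 75th percentile of the array, called normalised log2 signals here. They show how a gene differs between arrays and not how one gene compares with another.

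Low Se GD spleens were compared with low Se non-GD spleens to ask how the platelet genes differ with disease at a fixed low selenium supply. The secreted granule proteins Pf4, Ppbp and Thbs1 all rose, by 0.62, 1.19 and 1.44 on the log2 scale. Of the 6 membrane receptor genes only Gp1bb rose, by 0.50, and the other 5 had changes between 0.08 and 0.45 that did not pass. In all 4 of 9 genes rose and 0 fell (limma, adjusted p under 0.05), while among all genes tested 12.8% rose and 12.2% fell, 24.9% together. At an unadjusted p 5 of the 9 were called, against 37.6% of all genes, and for 4 of the 9 low Se GD lay wholly above low Se non-GD, against 29.5% of all genes. The median change of the 9 was 0.45, against 0.08 for all 26325 genes tested.

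**Figure D1:**
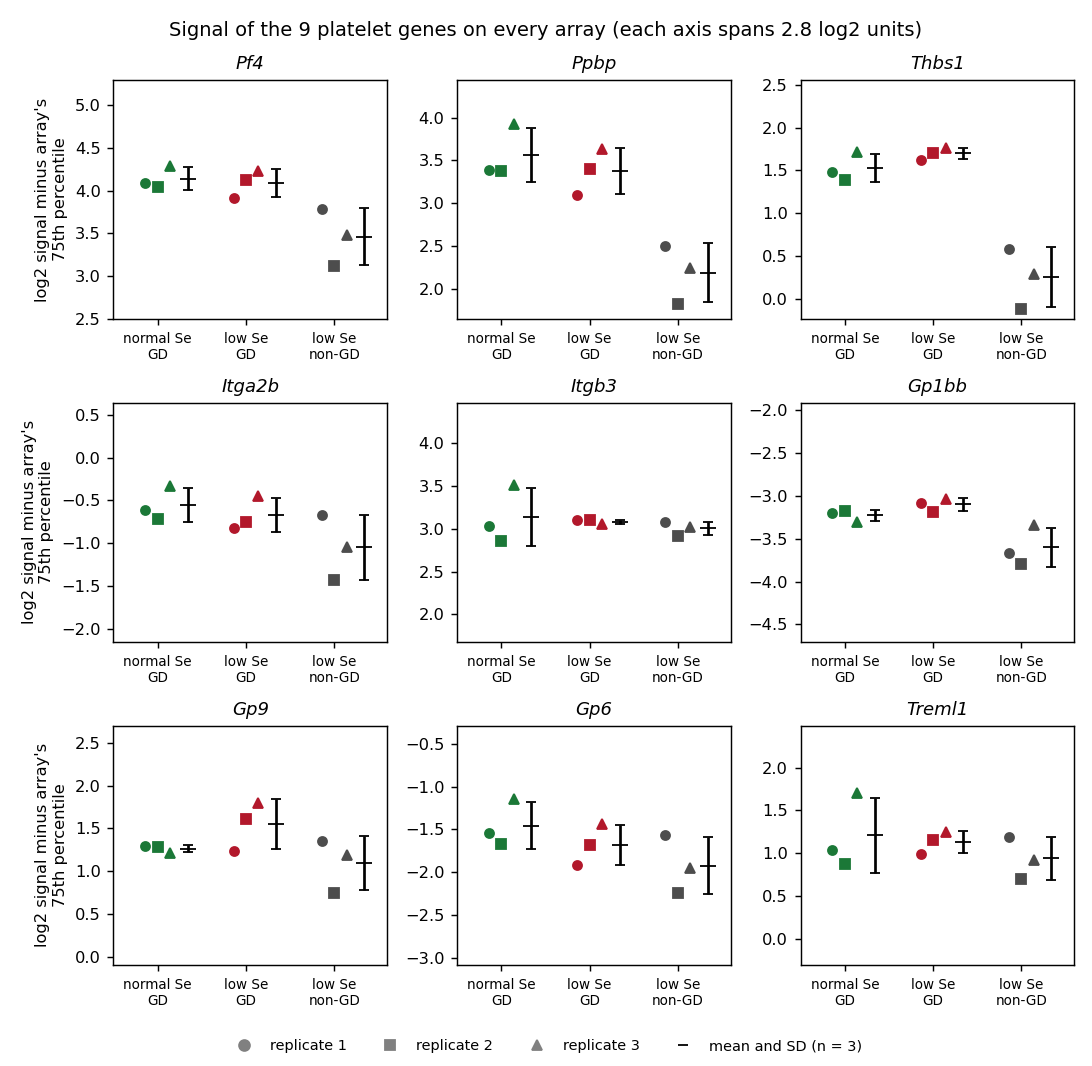
Normalised log2 signal (scaled to the array's 75th percentile) of each of the 9 genes on every array, by group, with the mean and SD of 3 arrays beside the points. Thbs1 lay between 1.39 and 1.76 on the 6 GD arrays and between -0.12 and 0.59 in low Se non-GD, while the Itgb3 groups overlap.

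Pf4 encodes platelet factor 4 (CXCL4), a chemokine of alpha granules that binds heparin and is among the most specific megakaryocyte products. Its normalised log2 signal was 4.09, 4.04 and 4.29 in normal Se GD spleens, 3.91, 4.12 and 4.23 in low Se GD spleens, and 3.78, 3.12 and 3.48 in low Se non-GD spleens. Both diseased groups lay wholly above the non-diseased one, though low Se GD replicate 1 exceeded low Se non-GD replicate 1 by little. Low Se GD averaged 4.09 ± 0.16 and low Se non-GD 3.46 ± 0.33 (SD, n = 3 each), a log2 fold change of 0.62 (SE 0.18, limma adjusted p = 0.0378). Within slide 1 low Se GD is 1 array, so that the tests there assume that it varies like low Se non-GD. The change on that slide was 0.45 (adjusted p = 0.391), and without the in-between arrays it was 0.62 (adjusted p = 0.257).

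Ppbp encodes pro-platelet basic protein, the precursor of the neutrophil-attracting chemokine CXCL7, and its gene neighbours Pf4 on chromosome 5. It stood at 3.39, 3.37 and 3.93 in normal Se GD spleens, 3.09, 3.40 and 3.63 in low Se GD spleens, and 2.505, 1.82 and 2.24 in low Se non-GD spleens. No diseased spleen fell within the range of the non-diseased ones. Low Se GD averaged 3.38 ± 0.27 against 2.19 ± 0.34 in low Se non-GD (SD, n = 3 each), a log2 fold change of 1.19 (SE 0.24, limma adjusted p = 0.00957). That is a 2.28-fold difference. Within slide 1 it was 0.91 (adjusted p = 0.164), and without the in-between arrays 1.20 (adjusted p = 0.121).

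Thbs1 encodes thrombospondin 1, a large adhesive glycoprotein of alpha granules that activates latent TGF-beta and is also made by macrophages and endothelium. Its values were 1.48, 1.39 and 1.71 in normal Se GD spleens, 1.63, 1.71 and 1.76 in low Se GD spleens, and 0.59, -0.12 and 0.29 in low Se non-GD spleens. The 6 diseased spleens formed a narrow band above all 3 non-diseased ones. Low Se GD averaged 1.70 ± 0.07 and low Se non-GD 0.25 ± 0.35 (SD, n = 3 each), a log2 fold change of 1.44 (SE 0.18, limma adjusted p = 0.00201), or 2.72-fold. Within slide 1 the change was 1.37 (adjusted p = 0.0967), and without the in-between arrays 1.46 (adjusted p = 0.0653).

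The 9 genes were matched by symbol to a RefSeq table of promoters on GRCm38.p6, in which 7 were found. Promoters of 4 are printed because Pf4 and Ppbp are neighbours that rose together, and because Itga2b was, among the 9, the closest in profile to both Pf4 and Gp6. Each runs 5′ to 3′ along the gene's strand and is 300 bases long, ending just inside the transcript. Capitals mark GATAA and GGAAG or their reverse complements TTATC and CTTCC, the cores bound by GATA and ETS factors, families to which the megakaryocyte regulators GATA1 and FLI1 belong.
Pf4, chr5:90772185-90772484, plus strand: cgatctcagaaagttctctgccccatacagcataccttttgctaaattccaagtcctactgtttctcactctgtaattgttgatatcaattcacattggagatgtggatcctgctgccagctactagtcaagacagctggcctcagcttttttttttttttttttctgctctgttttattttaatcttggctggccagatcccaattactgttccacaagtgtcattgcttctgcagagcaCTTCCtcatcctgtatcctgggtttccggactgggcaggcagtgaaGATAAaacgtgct
Ppbp, chr5:90768268-90768567, plus strand: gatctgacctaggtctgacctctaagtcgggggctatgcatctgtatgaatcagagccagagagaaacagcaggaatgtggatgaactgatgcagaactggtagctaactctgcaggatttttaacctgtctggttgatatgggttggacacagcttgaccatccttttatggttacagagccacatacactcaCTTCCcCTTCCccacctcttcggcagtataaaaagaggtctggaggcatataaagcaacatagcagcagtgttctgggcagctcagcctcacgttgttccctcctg
Itga2b, chr11:102469834-102470133, minus strand: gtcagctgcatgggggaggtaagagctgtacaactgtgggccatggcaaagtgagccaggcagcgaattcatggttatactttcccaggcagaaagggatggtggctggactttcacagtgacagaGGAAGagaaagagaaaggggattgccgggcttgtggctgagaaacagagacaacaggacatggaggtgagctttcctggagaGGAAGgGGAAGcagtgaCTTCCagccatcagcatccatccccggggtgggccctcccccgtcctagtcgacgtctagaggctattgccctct
Gp6, chr7:4397695-4397994, minus strand: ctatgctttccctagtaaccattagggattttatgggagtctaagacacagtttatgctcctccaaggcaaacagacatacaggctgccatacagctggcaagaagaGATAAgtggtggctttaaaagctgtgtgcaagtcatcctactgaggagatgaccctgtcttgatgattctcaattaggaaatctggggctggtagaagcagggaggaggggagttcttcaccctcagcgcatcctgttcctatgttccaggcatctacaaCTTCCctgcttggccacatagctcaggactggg
GGAAG was found on either strand in all 7 promoters searched, and Itga2b held the most matches, 4, as the line for it shows. GATAA was found in 3 of the 7, those of Pf4, Gp9 and Gp6. The same motifs were present in 71.4% and 25.4% of 32851 promoters of the same length, and no match of one overlapped a match of the other in these 7. A match is a run of letters and not a measured binding site. Thbs1 and Itgb3 were not matched.

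Itga2b and Itgb3 encode the subunits of integrin alphaIIb-beta3, the fibrinogen receptor through which platelets aggregate. Itga2b is largely restricted to megakaryocytes and platelets, while Itgb3 also pairs with the alphaV subunit on macrophages, osteoclasts and endothelium. Itga2b stood at -0.61, -0.72 and -0.33 in normal Se GD spleens, -0.82, -0.76 and -0.44 in low Se GD spleens, and -0.67, -1.43 and -1.04 in low Se non-GD spleens. The groups overlapped, since low Se non-GD replicate 1 exceeded low Se GD replicates 1 and 2. The difference of low Se GD from low Se non-GD was 0.37 (SE 0.21, 95% interval -0.11 to 0.86, limma adjusted p = 0.238). Itgb3 stood at 3.03, 2.86 and 3.51 in normal Se GD spleens, 3.10, 3.10 and 3.06 in low Se GD spleens, and 3.07, 2.92 and 3.02 in low Se non-GD spleens. Apart from normal Se GD replicate 3 its values were nearly level over the arrays. The difference of low Se GD from low Se non-GD was 0.08 (SE 0.16, 95% interval -0.30 to 0.46, limma adjusted p = 0.764).

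Gp1bb and Gp9 encode parts of the GPIb-IX-V complex, which catches von Willebrand factor on a damaged vessel wall. Gp1bb, by its brightest probe, stood at -3.20, -3.18 and -3.30 in normal Se GD spleens, -3.08, -3.18 and -3.04 in low Se GD spleens, and -3.67, -3.79 and -3.34 in low Se non-GD spleens. Both diseased groups lay above the non-diseased one on this probe. The change of low Se GD from low Se non-GD was 0.50 (SE 0.13, limma adjusted p = 0.0255), 0.52 within slide 1 (adjusted p = 0.218) and 0.67 without the in-between arrays (adjusted p = 0.0763). It was 0.01 under normexp background correction (adjusted p = 0.965) and 0.02 as the mean of the gene's probes (adjusted p = 0.981). Gp9 stood at 1.29, 1.29 and 1.21 in normal Se GD spleens, 1.23, 1.61 and 1.80 in low Se GD spleens, and 1.35, 0.74 and 1.18 in low Se non-GD spleens. The normal Se GD values were tightly placed between the extremes of the other groups, and the difference of low Se GD from low Se non-GD was 0.45 (SE 0.19, limma adjusted p = 0.128).

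Gp6 encodes glycoprotein VI, the collagen receptor that signals through the Fc receptor gamma chain. It stood at -1.54, -1.67 and -1.15 in normal Se GD spleens, -1.92, -1.68 and -1.44 in low Se GD spleens, and -1.57, -2.24 and -1.95 in low Se non-GD spleens. Treml1 encodes TLT-1, a receptor of alpha granules that reaches the surface of activated platelets. Its values were 1.04, 0.88 and 1.70 in normal Se GD spleens, 0.99, 1.16 and 1.25 in low Se GD spleens, and 1.19, 0.70 and 0.92 in low Se non-GD spleens. For both genes the groups overlapped in every comparison, and the highest single array was normal Se GD replicate 3. Low Se GD differed from low Se non-GD by 0.24 for Gp6 (SE 0.22, adjusted p = 0.468) and by 0.19 for Treml1 (SE 0.23, adjusted p = 0.586). Without both in-between arrays the differences were 0.42 for Itga2b, 0.08 for Itgb3, 0.47 for Gp9, 0.23 for Gp6 and 0.17 for Treml1, and none passed.

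**Figure D2:**
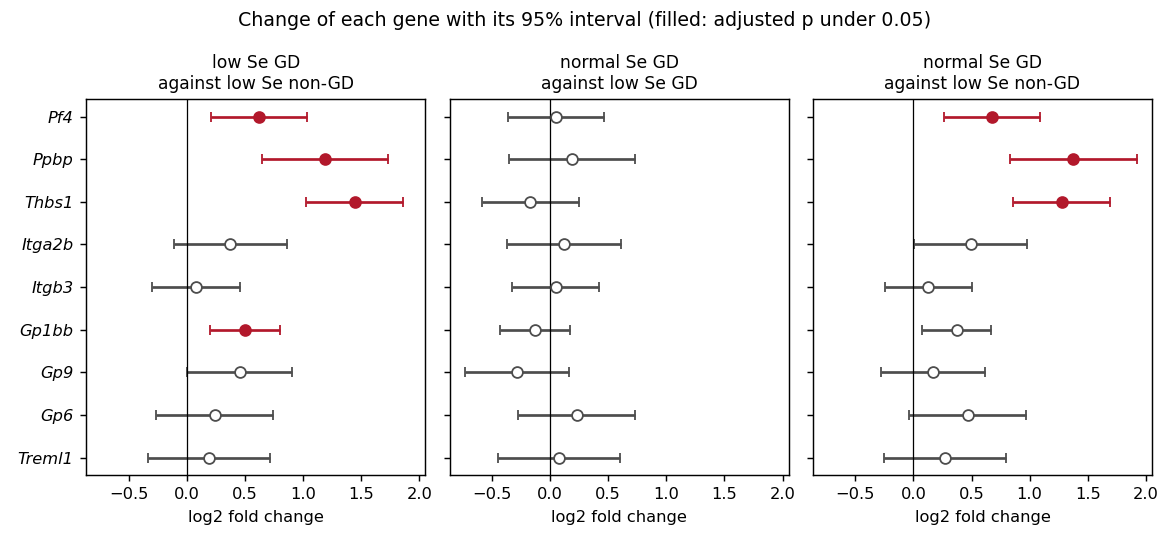
Log2 fold changes of the 9 genes in the 3 comparisons (x axis), each with its 95% interval from limma, filled where the adjusted p is under 0.05. Pf4, Ppbp and Thbs1 are filled in both comparisons with low Se non-GD, Gp1bb in the first, and no gene is filled for normal Se GD against low Se GD.

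Within the groups the 9 genes often ranked the arrays alike. Low Se non-GD replicate 2 was the lowest of its group for all 9 genes and replicate 1 the highest for 8. In low Se GD, replicate 3 was the highest for 8 and replicate 1 the lowest for 7, and in normal Se GD replicate 3 was the highest for 7. Low Se GD replicates 3 and 1 lay between the remaining arrays of their group for only 19.98% and 11.1% of 18541 genes. For normal Se GD replicate 3 this share was 7.42%. Each was thus an extreme of its group for most genes, which is not particular to the platelet genes. Whether the 9 genes share a direction more often than other genes was not tested. Erythroid genes, summed over 16 measured genes in units of the array's 75th percentile, stood at 989 on low Se non-GD replicate 1, 383 on replicate 2 and 718 on replicate 3. Replicates 1 and 2 were again the extremes. They were so, in either direction, for 78.3% of 18541 genes, and for the summed neutrophil, fat and lymphocyte genes. Replicate 1 had the highest neutrophil and fat sums but the lowest lymphocyte sum, 125 against 153 on replicate 2. That replicates 1 and 2 were the extremes is thus not particular to erythroid genes. When low Se non-GD replicate 2 was left out, the number of platelet genes called in low Se GD versus low Se non-GD was 2, namely Ppbp and Thbs1, and Pf4 stood at 0.46 (adjusted p = 0.0965). The number called was also 2 without low Se GD replicate 2 or without replicate 3, and 0 without both in-between arrays. Of all genes 16.5%, 13.1%, 17.2% and 1.02% were called in these fits, in that order.

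Profiles were compared as the root mean square difference between normalised log2 signals over the 9 arrays, each gene centred on its own mean. Of the 36 pairs, Itga2b and Gp6 were closest at 0.08, then Pf4 and Itga2b at 0.12, and Itgb3 and Treml1 at 0.13. Ppbp and Thbs1 were 0.19 apart, while Thbs1 and Itgb3 were the farthest pair at 0.62. Pf4, the neighbour of Ppbp, was thus nearer to the integrin subunit Itga2b than to Ppbp, from which it was 0.32 apart. Outside the 9, the tested genes with the profile closest to Pf4 over the 9 arrays were Dysf (0.05), Lgalsl (0.06), Pparg (0.07) and Mtcp1 (0.07). Those closest to Thbs1 were Clec4a1 (0.07), Mgat4b (0.09), S1pr5 (0.12) and Creb3l2 (0.12). Pf4 itself ranged over 1.17 and Thbs1 over 1.88 log2 units.

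Itgb3 and Gp1bb were the genes with several probes. Both Itgb3 probes were well above background on all 9 arrays. The dimmer one, A_66_P126293, stood at -2.17, -2.34 and -1.62 in normal Se GD spleens, -2.14, -2.03 and -2.16 in low Se GD spleens, and -1.86, -1.68 and -1.78 in low Se non-GD spleens. Here low Se GD lay wholly below low Se non-GD, with a difference of -0.34 (SE 0.18), the opposite sign to the brighter probe, and neither passed over the 31868 probes tested (adjusted p = 0.209 and 0.762). Of the 12 probes 4 rose and 0 fell in low Se GD, against 13.3% of all probes that rose.

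The remaining Gp1bb probes were near background. A_55_P2039876 was well above background on 1 of 3 normal Se GD, 3 of 3 low Se GD and 1 of 3 low Se non-GD arrays. It stood at -6.09, -6.59 and -5.85 in normal Se GD spleens, -4.36, -6.02 and -6.28 in low Se GD spleens, and -6.31, -2.01 and -6.10 in low Se non-GD spleens. Low Se non-GD replicate 2 was far above every other array on it, and yet was the lowest array on the brightest Gp1bb probe. A_55_P2039878 was well above background on 2 of 3 normal Se GD, 2 of 3 low Se GD and 0 of 3 low Se non-GD arrays, so only a bound could be set in low Se non-GD, and no fold is given. Measured means were -5.85 in normal Se GD, -5.72 in low Se GD and -6.02 in low Se non-GD.

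**Figure D3:**
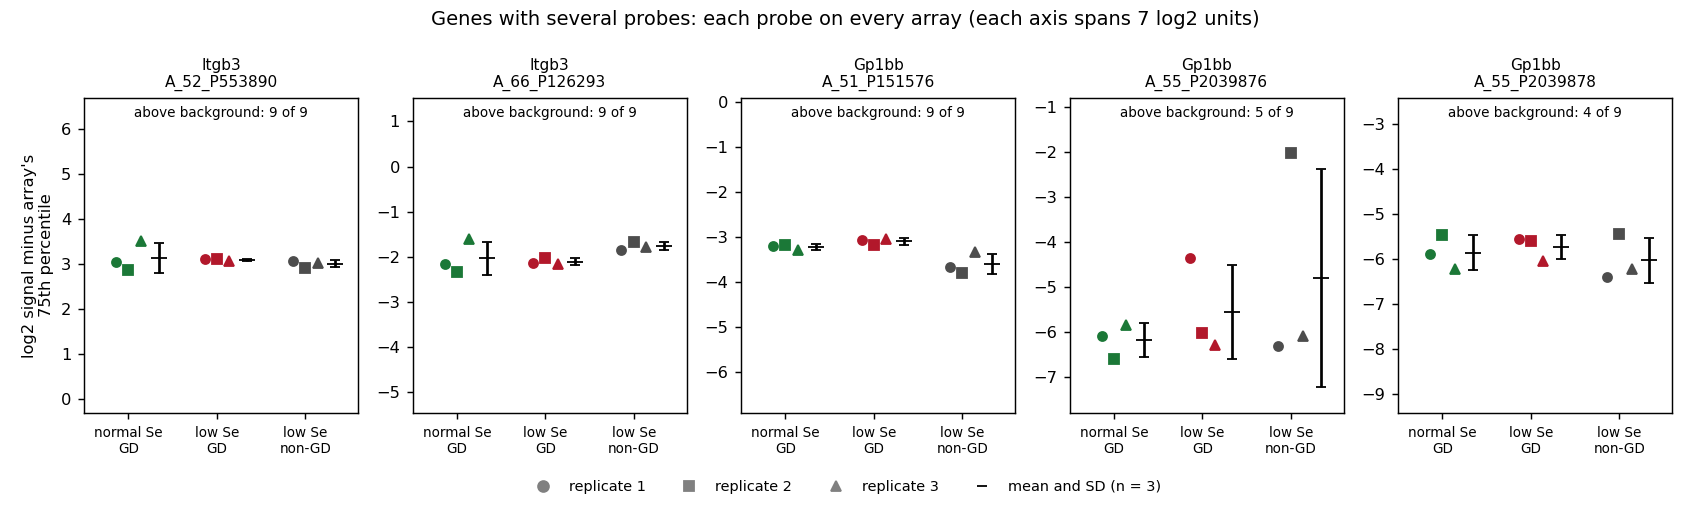
Normalised log2 signal of the 5 probes of Itgb3 and Gp1bb on every array by group, with the mean and SD of 3 arrays, and the number of arrays well above background at the top of each panel. On A_55_P2039876, low Se non-GD replicate 2 stands at -2.01, and the other arrays lie between -6.59 and -4.36.

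Normal Se GD was compared with low Se GD to ask what the selenium supply changed among diseased mice. None of the platelet genes rose or fell: 0 of 9 passed (limma), where 1.27% of all genes tested did, 0.976% higher and 0.292% lower. At an unadjusted p 0 of 9 were called, against 19.4% of all genes. The groups overlapped for all 9 genes, while they did not for 29.4% of all genes. Of the 12 probes 0 rose, against 1.8% of all probes. The largest differences were -0.28 for Gp9 (SE 0.19, 95% interval -0.73 to 0.16, adjusted p = 0.468) and 0.23 for Gp6 (SE 0.22, 95% interval -0.28 to 0.73, adjusted p = 0.611). For the genes that rose with disease the intervals were -0.36 to 0.47 for Pf4, -0.36 to 0.73 for Ppbp, -0.59 to 0.25 for Thbs1 and -0.43 to 0.17 for Gp1bb. The changes these genes showed in low Se GD versus low Se non-GD lie above the intervals, though both comparisons use the low Se GD arrays. Within slide 2 the differences were -0.11 for Pf4 (adjusted p = 0.335) and -0.14 for Ppbp (adjusted p = 0.384), with the sign turned for both. Pf4 stood at -0.02 without normal Se GD replicate 3 and at -0.04 without low Se GD replicate 1.

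Normal Se GD against low Se non-GD joins disease and supply, which cannot be told apart in it. It shares arrays with both comparisons above. Here 3 of 9 genes rose and 0 fell (limma), while among all genes tested 18.9% rose and 13.4% fell, 32.3% together. At an unadjusted p 5 were called, against 42.8% of all genes, and 4 lay wholly above low Se non-GD, against 28% of all genes. Of the 12 probes 3 rose, against 20.9% of all probes. Ppbp was higher by 1.38 (SE 0.24, adjusted p = 0.00405), Thbs1 by 1.27 (SE 0.18, adjusted p = 0.00205) and Pf4 by 0.68 (SE 0.18, adjusted p = 0.0224). Gp1bb stood 0.37 higher (SE 0.13, adjusted p = 0.0596) with no overlap between the groups. Itga2b was at 0.49 (adjusted p = 0.113), Gp6 at 0.47 (adjusted p = 0.141), Treml1 at 0.27 (adjusted p = 0.407), Gp9 at 0.17 (adjusted p = 0.544) and Itgb3 at 0.13 (adjusted p = 0.585). No slide held both groups. With slide as a fixed block 0 of 9 passed, where 18.3% of all genes did. Thbs1 then stood at 1.07 (adjusted p = 0.0782), Ppbp at 0.77 (adjusted p = 0.160) and Pf4 at 0.34 (adjusted p = 0.478). Without both in-between arrays Ppbp and Thbs1 passed, and Pf4 stood at 0.69 (adjusted p = 0.119).

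The order of the group means differed between genes. For Pf4, Ppbp, Itga2b, Itgb3, Gp6 and Treml1 it was normal Se GD, then low Se GD, then low Se non-GD. For Thbs1, Gp1bb and Gp9 low Se GD was the highest and low Se non-GD again the lowest. The 2 diseased groups were not told apart for any of the 9, and the step down to low Se non-GD passed for Pf4, Ppbp and Thbs1 from either diseased group and for Gp1bb from low Se GD.

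A wider set of 60 megakaryocyte and platelet genes outside the 9 was taken in 4 lists, of which 59 were tested. In low Se GD versus low Se non-GD 13 rose and 5 fell, so that 22.0% rose against the 12.8% of all genes. In normal Se GD against low Se GD 1 rose and 0 fell, or 1.69% that rose against 0.976% of all genes. In normal Se GD against low Se non-GD 21 rose and 3 fell, or 35.6% that rose against 18.9%. Medians in that order were 0.29, 0.05 and 0.29, against 0.08, 0.00 and 0.06 for all genes. Without both in-between arrays 1, 0 and 5 of the wider genes were called in either direction, beside 1.02%, 0% and 11.6% of all genes. Of the 15 genes named below, Gata2 then passed in low Se GD, and Gata2, F2r, Cd226 and Fli1 in normal Se GD, against low Se non-GD.

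Of 18 genes listed as platelet receptors 10 rose in normal Se GD and 5 in low Se GD relative to low Se non-GD, and 0 fell in either. The shares that rose were 55.6% and 27.8%, against 18.9% and 12.8% of all genes. F2r, the thrombin receptor PAR1 of human platelets and of other cell types, rose by 0.87 in low Se GD (SE 0.11, adjusted p = 0.00203) and by 1.21 in normal Se GD (SE 0.11, adjusted p = 0.000502). Cd226, an adhesion receptor of platelets, natural killer cells and T cells, rose by 0.70 in low Se GD (adjusted p = 0.00297) and by 1.097 in normal Se GD (adjusted p = 0.000525). Gp5, another part of the GPIb-IX-V complex, stood at -1.29, -1.54 and -0.81 in normal Se GD spleens, -1.84, -1.60 and -1.47 in low Se GD spleens, and -2.04, -3.14 and -2.40 in low Se non-GD spleens. Its groups did not overlap with disease, and it rose by 1.31 in normal Se GD (adjusted p = 0.0127) and stood 0.89 higher in low Se GD (adjusted p = 0.0640). P2ry1, an ADP receptor, rose by 1.15 in normal Se GD (adjusted p = 0.0462) and stood 1.18 higher in low Se GD (adjusted p = 0.0515). Its normal Se GD call held in only 6 of 21 alternatives. P2ry1 was lowest, at -4.17, on low Se non-GD replicate 2.

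Among 16 granule genes 4 rose and 3 fell in low Se GD, and 7 rose and 0 fell in normal Se GD, against low Se non-GD. The shares that rose were 25% and 43.8%, against 12.8% and 18.9% of all genes. Mmrn1, multimerin 1, a carrier of factor V in alpha granules, rose by 0.80 in low Se GD (adjusted p = 0.0367) and 0.87 in normal Se GD (adjusted p = 0.0224). Slc35d3, a nucleotide sugar carrier needed for dense granules, rose by 0.59 (adjusted p = 0.04005) and 0.86 (adjusted p = 0.00749). The low Se GD calls of Mmrn1 and Slc35d3 held in only 7 and 8 of 22 alternatives, and their normal Se GD calls in 15 and 18 of 21. Tgfb1, stored in alpha granules and made by many leukocytes, stood 0.25 higher in low Se GD (adjusted p = 0.268) and rose by 0.75 in normal Se GD (adjusted p = 0.00768). Vps33b, a sorting protein of alpha granules found in many cells, fell by 0.68 in low Se GD (adjusted p = 0.0192). It was the only wider gene called between the diseased groups, 0.90 higher in normal Se GD than in low Se GD (adjusted p = 0.0490). That call held in 7 of 22 alternatives, with values from 0.74 to 0.998 and adjusted p from 0.0117 to 0.512, and was lost under normexp, quantile normalization, the authors' deposited table and no filter on dim probes.

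Of 15 signalling and cytoskeleton genes 3 rose and 1 fell in each diseased group against low Se non-GD. The 20% that rose lies near the 18.9% of all genes in normal Se GD and above the 12.8% in low Se GD. Mylk, the myosin light chain kinase, rose by 0.55 in low Se GD (adjusted p = 0.0368) and 0.53 in normal Se GD (adjusted p = 0.0332). Its dim probe was well above background on 2 of 3 normal Se GD arrays, and on 3 of 3 in each other group. The low Se GD call held in 11 of 21 alternatives, with values from -0.24 to 0.75. The normal Se GD call held in 12 of 20, with values from 0.01 to 0.97. Myl9, a myosin light chain of platelets and smooth muscle, fell by 0.55 (adjusted p = 0.00502) and 0.39 (adjusted p = 0.0149). Stim1, the calcium store sensor, rose by 0.59 in low Se GD (adjusted p = 0.0358) with a second probe at 0.61, and stood at 0.00 in normal Se GD (adjusted p = 0.986). The Stim1 call in low Se GD held in 10 of 22 alternatives. Gucy1b1, a subunit of the nitric oxide receptor, rose by 0.84 in normal Se GD (adjusted p = 0.0188).

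Of the 10 transcription factor genes of the lineage 1 rose and 1 fell in low Se GD, and 1 rose and 2 fell in normal Se GD, against low Se non-GD. The 10% that rose in each lies below the 12.8% and 18.9% of all genes. Gata2, a factor of blood stem cells, early megakaryocytes and mast cells, stood at -1.69, -1.86 and -2.003 in normal Se GD spleens, -1.78, -1.80 and -2.01 in low Se GD spleens, and -0.13, -0.46 and -0.31 in low Se non-GD spleens. It fell by 1.57 in low Se GD (SE 0.13, adjusted p = 0.000528) and by 1.56 in normal Se GD (adjusted p = 0.000439), with wide gaps between the groups. Fli1, the ETS factor of megakaryocytes that endothelium and lymphocytes also express, rose by 0.71 in low Se GD (adjusted p = 0.00696) and 0.98 in normal Se GD (adjusted p = 0.00168). Runx1 fell by 0.53 in normal Se GD (adjusted p = 0.00349) on the probe that stood for it, while its other probe rose by 1.38 (adjusted p = 0.00156 over all probes), so its direction depends on the probe. Between normal Se GD and low Se GD 0 of the 10 passed (limma), where 1.27% of all genes did. At an unadjusted p 5 were lower and 0 higher, against 19.4% of all genes called in either direction. The median of the 10 was -0.31, against 0.00 for all genes. Runx1 stood at -0.27 in this comparison. Gata1, Nfe2, Tal1 and Zfpm1 are factors that red cell precursors share and were chosen after their values were seen. They stood at -1.02, -1.09, -1.25 and -1.10074 (adjusted p = 0.118, 0.157, 0.0730 and 0.112).

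**Figure D4:**
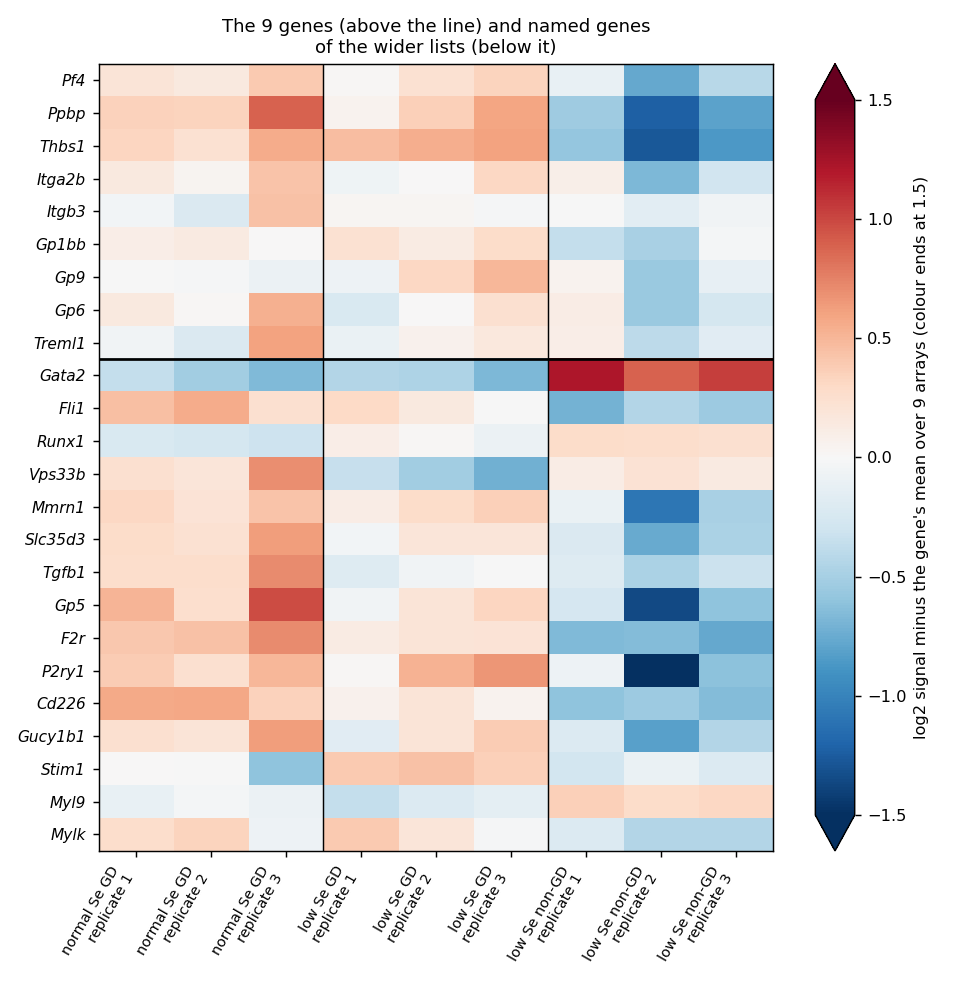
Normalised log2 signal of the 9 genes and of the named genes of the wider lists (rows) on the 9 arrays (columns), each gene minus its mean over the arrays, with colour ending at 1.5 log2 units. Ppbp, Thbs1, Gp5 and P2ry1 are low on the low Se non-GD arrays and lowest on replicate 2, and Gata2 is high on those arrays.

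Markers of other cells moved beside these genes, and their part in the platelet gene results was not tested. Without both in-between arrays 0 of the erythroid, macrophage, fat, neutrophil and lymphocyte genes passed in low Se GD versus low Se non-GD. Of all genes 1.02% passed there. In normal Se GD against low Se non-GD 7 macrophage, 1 fat, 2 endothelial or stromal, 2 neutrophil and 1 lymphocyte gene rose. Of all genes 11.6% were then called in either direction. Of 17 monocyte and macrophage genes 11 rose and 1 fell in low Se GD and 12 rose and 0 fell in normal Se GD, against low Se non-GD. The shares that rose were 64.7% and 70.6%. Of all genes 12.8% and 18.9% rose, and 12.2% and 13.4% fell, in these 2 comparisons. The summed macrophage signal, in units of the 75th percentile, was 185 to 223 in normal Se GD, 185 to 197 in low Se GD and 159 to 172 in low Se non-GD. C1qa, a complement chain of macrophages, rose by 1.46 in low Se GD, and Csf1r, the growth factor receptor of macrophages, by 0.70. Of 16 erythroid genes, which share a precursor with megakaryocytes, 0 passed in any comparison (limma). At an unadjusted p, 2 were higher in low Se GD than in low Se non-GD, against 37.6% of all genes called in either direction. In normal Se GD 6 were lower than in low Se GD, against 19.4% of all genes, and 1 was lower than in low Se non-GD, against 42.8%. The erythroid median was 0.79 in low Se GD versus low Se non-GD and -0.98 in normal Se GD against low Se GD, where that of the 9 platelet genes was 0.05. Summed erythroid signals were 612 to 665 in normal Se GD, 691 to 866 in low Se GD and 383 to 989 in low Se non-GD. Hba-a1, an alpha globin, stood at 0.02 and Alas2, an enzyme of heme synthesis, at 0.73 in low Se GD versus low Se non-GD (adjusted p = 0.974 and 0.234).

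Fat tissue genes, of which 11 were tested, summed to 6.82 to 7.37 in normal Se GD, 13.3 to 82.4 in low Se GD and 5.998 to 11.3 in low Se non-GD. Low Se GD replicate 1 had the highest fat signal and was the lowest of its group for 7 of the 9 platelet genes. It was an extreme of its group for most genes, lying between the remaining arrays for only 11.1% of 18541. A link between the fat signal and the platelet genes was not tested. Of the 11 fat genes, 6 rose and 1 fell in low Se GD versus low Se non-GD. In normal Se GD against low Se GD 0 rose and 1 fell, and in normal Se GD against low Se non-GD 2 rose and 1 fell. Of all genes 12.8%, 0.976% and 18.9% rose in that order, and 12.2%, 0.292% and 13.4% fell. Adipoq, a fat cell hormone, was well above background on 2 of 3 normal Se GD, 3 of 3 low Se GD and 2 of 3 low Se non-GD arrays. Fabp4, a fatty acid carrier of fat cells, lay between -1.04 and -0.91 in normal Se GD, 2.11 and 5.49997 in low Se GD, and -1.63 and 1.38 in low Se non-GD. Of 15 endothelial and stromal genes, 3 rose and 2 fell in low Se GD and 7 rose and 0 fell in normal Se GD against low Se non-GD. Thus 20% and 46.7% rose, against 12.8% and 18.9% of all genes. Pecam1, an endothelial and platelet adhesion molecule, stood at 0.11 (adjusted p = 0.518) and 0.45 (adjusted p = 0.0171) in these comparisons. The 3 that rose in low Se GD, chosen after their values were seen, were the endothelial cadherin Cdh5 by 1.23 (adjusted p = 0.000609), the endothelial receptor Tie1 by 0.57 (adjusted p = 0.0190) and the chemokine Cxcl12 by 1.26 (adjusted p = 0.0122). The 2 that fell there were Acta2 by 0.52 (limma adjusted p = 0.0336) and Ccl19 by 0.64 (limma adjusted p = 0.0466). The remaining 10 did not pass. Of the 15, 1 passed without both in-between arrays. Endothelial and stromal sums were 50.1 to 58.2 in normal Se GD, 38.8 to 47.03 in low Se GD and 41.6 to 45.5 in low Se non-GD. Of 11 neutrophil genes 2 rose and 1 fell in low Se GD and 5 rose and 1 fell in normal Se GD, against low Se non-GD. That is 18.2% and 45.5% that rose, against 12.8% and 18.9% of all genes. Neutrophil sums were 139 to 176 in normal Se GD, 135 to 163 in low Se GD and 143 to 187 in low Se non-GD. Of 14 spleen lymphocyte genes 1 rose and 3 fell in low Se GD and 3 rose and 1 fell in normal Se GD against low Se non-GD. The 7.14% and 21.4% that rose lie below and near the 12.8% and 18.9% of all genes. Lymphocyte sums were 122 to 134 in normal Se GD, 106 to 111 in low Se GD and 125 to 153 in low Se non-GD.

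**Figure D5:**
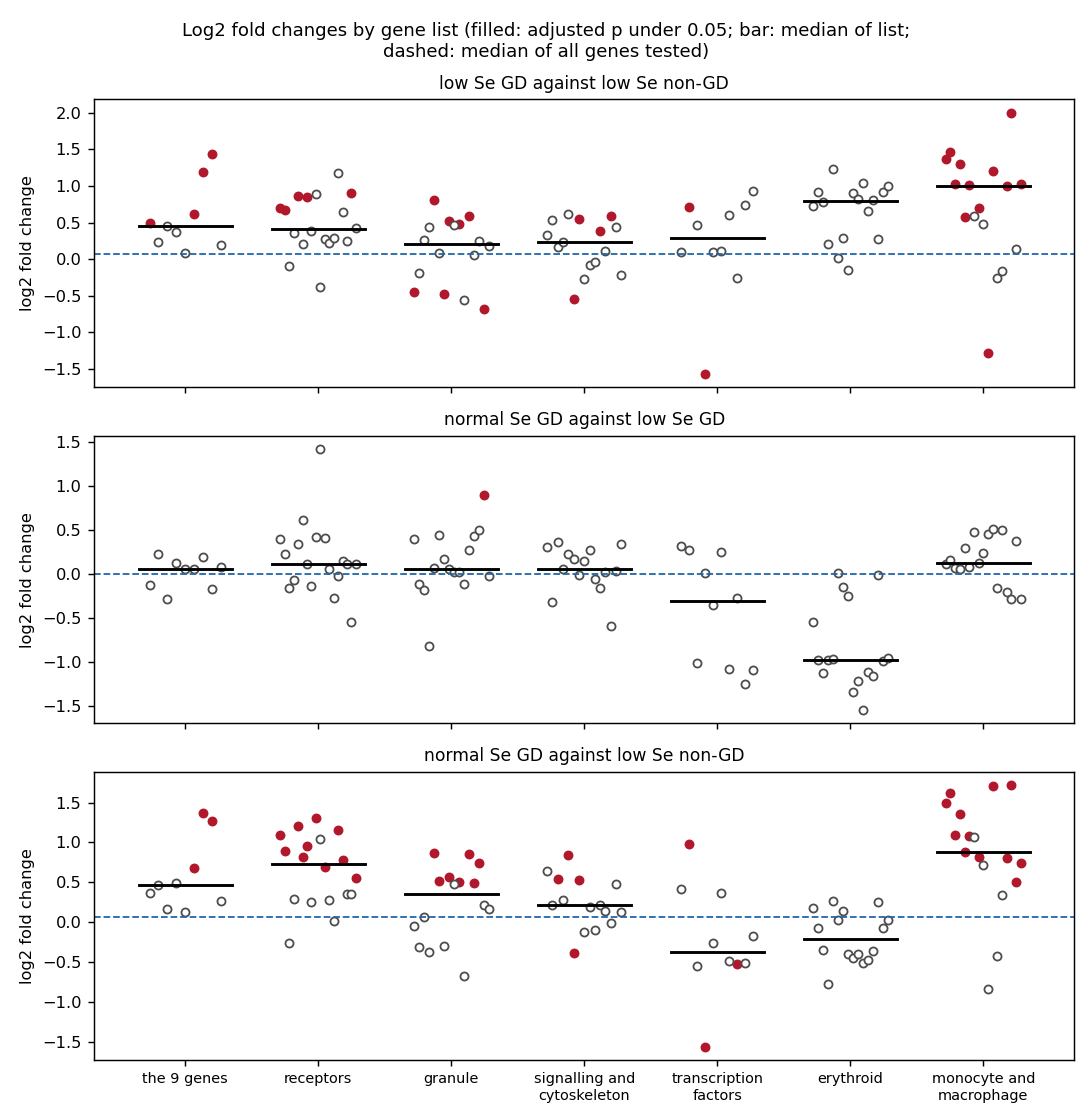
Log2 fold changes of every tested gene (points, filled where the adjusted p is under 0.05) by list in the 3 comparisons, with the median of each list as a bar and that of all genes as a dashed line. In normal Se GD against low Se GD the bar of the 9 genes stands at 0.05 and the erythroid bar at -0.98.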

How the data were processed

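Spleen RNA had been hybridised to Agilent 1-colour arrays (design 026655), per the labels' protocols and the file headers. The deposited scanner files give an intensity per spot (written by Agilent Feature Extraction, version 11.0.1.1 in the file headers), with no scaling between arrays recorded, and marks for background, saturation and outliers. The authors' deposited table of log2 values, with its making not stated in the material used here, served as an alternative. Its 9 columns share a median of 6.44. In it 6 of 9 columns matched their own array best, and the low Se non-GD columns matched other arrays of that group, so those replicate numbers are uncertain.

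Log2 processed signals were scaled to each array's 75th percentile over 43020 non-control spots. Outlier spots were dropped, spots of a probe averaged, and a gene was represented by its probe of highest mean. Accessions were matched to the GRCm38.p6 RefSeq table, which named 27234 of 39429 probes. Genes well above background on fewer than 3 of 9 arrays (6079) or lacking a value (47) were left out, and 26325 were tested. No spot was saturated (0 on every array). All 9 arrays entered 1 limma 3.58.1 fit (R 4.3.3, lmFit and eBayes, 2-sided), with Benjamini-Hochberg adjusted p-values over all genes, or over 31868 probes in a second fit, at a threshold of 0.05. Standard errors and 95% intervals are limma's. The number of arrays limits the precision.

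Every member and its probes are named. Of each wider list the named genes are up to 4 of those called in any comparison, by size of change. Of the other cell types fixed defining markers are named, apart from a marker that is not reported here. The members, lists and tests were chosen with earlier results of these data known. The alternatives are given in the closing section. Normexp was run on the median signal, a choice made after seeing the files, which hold no mean signal.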

Additional observations from a re-analysis of the deposited data

How the results depend on the processing

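In low Se GD versus low Se non-GD the number of the 9 genes called was 4, beside 24.9% of all genes. It was 1 with slide as a fixed block (28.3% of all genes), 2 with a replicate block (19.6%) and 0 without both in-between arrays. Within 1 slide low Se GD was 1 array, so no count is given. Leaving out 1 array at a time gave 2 to 4 (13.1% to 41% of all genes). In normal Se GD against low Se non-GD the number called was 3, beside 32.3% of all genes. It was 0 with slide as a fixed block (18.3%) and 1 with slide as a random block (22.7%). Leaving out 1 array gave 2 to 4 (20.6% to 43.8%). In normal Se GD against low Se GD the number of the 9 called was 0 under every alternative run. That 0 was certain where 0 of all genes passed, as under normexp, no filter on dim probes, only the 2 groups compared or a replicate block. The same held without both in-between arrays and in most fits leaving out 1 array. With slide as a fixed or a random block 6.51% and 7.37% of all genes were called. Pf4, Ppbp and Thbs1 were positive against low Se non-GD under all alternatives. In low Se GD Ppbp lay between 0.91 and 1.35 and Thbs1 between 1.26 and 1.61. Their calls there held in 19 and 20 of 22 alternatives. Those of Pf4 and Gp1bb held in only 10 and 11 of 22, with values from 0.45 to 0.78 and from 0.01 to 0.67. The normal Se GD call of Pf4 against low Se non-GD held in 14 of 21. Without both in-between arrays 1.02% of all genes were called in low Se GD versus low Se non-GD, fewer arrays being fitted.

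For Pf4, Ppbp, Thbs1, Itga2b, Itgb3, Gp1bb, Gp9, Gp6 and Treml1, none of the values that changed sign had passed. Of the named wider genes, Mylk and Runx1 had passed against low Se non-GD and changed sign. Mylk ranged from -0.24 to 0.75 in low Se GD, and Runx1 from -0.55 to 0.43 in normal Se GD. In normal Se GD against low Se GD, slide as a fixed block and the comparison within 1 slide both gave -0.11 for Pf4, -0.14 for Ppbp, -0.066 for Itga2b, -0.13 for Itgb3, -0.043 for Gp6 and -0.24 for Treml1. The random block gave -0.050 for Pf4, -0.017 for Ppbp, -0.065 for Itgb3 and -0.12 for Treml1, and normexp gave -0.0013 for Pf4 and 0.10 for Gp1bb. In normal Se GD against low Se non-GD the fixed block gave -0.038 for Itgb3, -0.28 for Gp9, -0.040 for Gp6 and -0.19 for Treml1, and the random block -0.15 for Gp9. The mean of all probes gave -0.13 for Itgb3 in low Se GD versus low Se non-GD, and -0.069 for Itgb3 and -0.28 for Gp1bb in normal Se GD against low Se non-GD. Leaving out 1 array gave -0.035 to 0.13 for Pf4, -0.14 to 0.19 for Itgb3 and -0.17 to 0.24 for Treml1 in normal Se GD against low Se GD, and -0.059 to 0.27 for Itgb3 and -0.0050 to 0.30 for Gp9 in normal Se GD against low Se non-GD. The cause was not tested.

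The wider genes called in either direction numbered 18, 1 and 24 in the order of the report, with ranges of 0 to 28, 0 to 11 and 5 to 25. Normexp moved the median of all genes to -0.16 in low Se GD versus low Se non-GD and to 0.16 in normal Se GD against low Se GD. Same-numbered samples did not deviate together: 0 of 9 pairs had a correlation over 0.1 (-0.213 to 0.0991). The replicate numbers of low Se non-GD are uncertain, and differently numbered pairs with that group reached 0.236. Whether its samples were paired with the others therefore cannot be told from the numbers. Normexp on the mean signal was not run.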
